A study of Mus musculus with 12 samples.

Results

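The genes described here are 46 genes of the cell cycle and of DNA replication, out of 21556 genes counted in 12 RNAseq libraries from primary mouse skin fibroblasts. They were chosen by name as textbook genes of the cycle and were split into 19 genes of the G1/S transition and S phase and 27 genes of G2 and mitosis (G2/M). All 46 had a row in the table of raw counts. Fibroblasts came from the skin of wild type mice (WT, C57BL/6) and of mice with a constitutive Nox4 deletion (Nox4 KO, B6.129-Nox4tm1Kkr/J), which were bred as separate litters from littermates. Nox4 is an NADPH oxidase that produces hydrogen peroxide and is induced by TGF-β. All cells were grown in serum, plated, and starved for 24 h. They were then left without stimulation (control) or given TGF-β2 at 10 ng/ml for 24 h, which turns fibroblasts into contractile myofibroblasts. Each of the 4 groups (WT control, WT TGF-β2, Nox4 KO control, Nox4 KO TGF-β2) held 3 libraries, numbered 1 to 3. The age of the mice from which these cells were grown and the number of mice behind each library were not given in the sources used here, so the p-values measure the spread between these libraries, which may be technical.

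Cells enter the cycle when cyclin D kinases and then cyclin E with Cdk2 release E2F transcription factors, which switch on the genes for origin licensing, the replicative helicase and nucleotide synthesis. Later, B-Myb and Foxm1 with the MuvB complex drive a second wave of genes for cyclin B, the mitotic kinases, the kinetochore and the spindle. Most of these transcripts are abundant only in G2 and mitosis. In cultured fibroblasts, the level of both waves in bulk RNA follows the share of cells that are cycling. In bulk samples, fewer cycling cells and less RNA of these genes per cell cannot be told apart.

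Between 35118344 and 43796260 reads per library were assigned to genes. The lowest count of any of the 46 genes was 17 (Ccnb1 in WT TGF-β2 library 3) and the highest was 10817 (Rrm1 in Nox4 KO control library 1). The row of the targeted gene kept reads in Nox4 KO: the RPKM of Nox4 (reads per kilobase of merged exon, scaled to the library's total) was 1.31 to 2.42 in WT control, 8.56 to 16.3 in WT TGF-β2, 0.636 to 1.4 in Nox4 KO control and 4.39 to 6.85 in Nox4 KO TGF-β2. The control libraries of the genotypes overlapped and the stimulated ones did not, and a gene total does not show on which exons these reads fell. All 10 of 10 fibroblast markers were at 1 RPKM or more in all 12 libraries, as were 3 of 10 macrophage markers and none of 6 keratinocyte markers.

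The cell cycle genes moved as 1 block between the libraries of each group. In the WT control and WT TGF-β2 groups, library 3 had the lowest RPKM for all 46 genes, and library 2 the highest for 45 of 46. In the Nox4 KO groups, library 1 had the highest RPKM for 45 genes in control and for 46 after TGF-β2, and library 3 the lowest for 45 in each. The spread was wider for mitotic genes than for S phase genes. Within WT control, the highest library exceeded the lowest by a median of 3.33-fold over the G2/M genes, by 1.61-fold over the S phase genes and by 1.16-fold over all genes tested. Within WT TGF-β2 these medians were 5.19-fold, 2.25-fold and 1.32-fold. Within Nox4 KO they were 2.67-fold, 1.62-fold and 1.18-fold in control and 3.37-fold, 1.93-fold and 1.17-fold after TGF-β2. Each group thus held libraries that differed far more in these genes than in a typical gene.

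**Figure D1:**
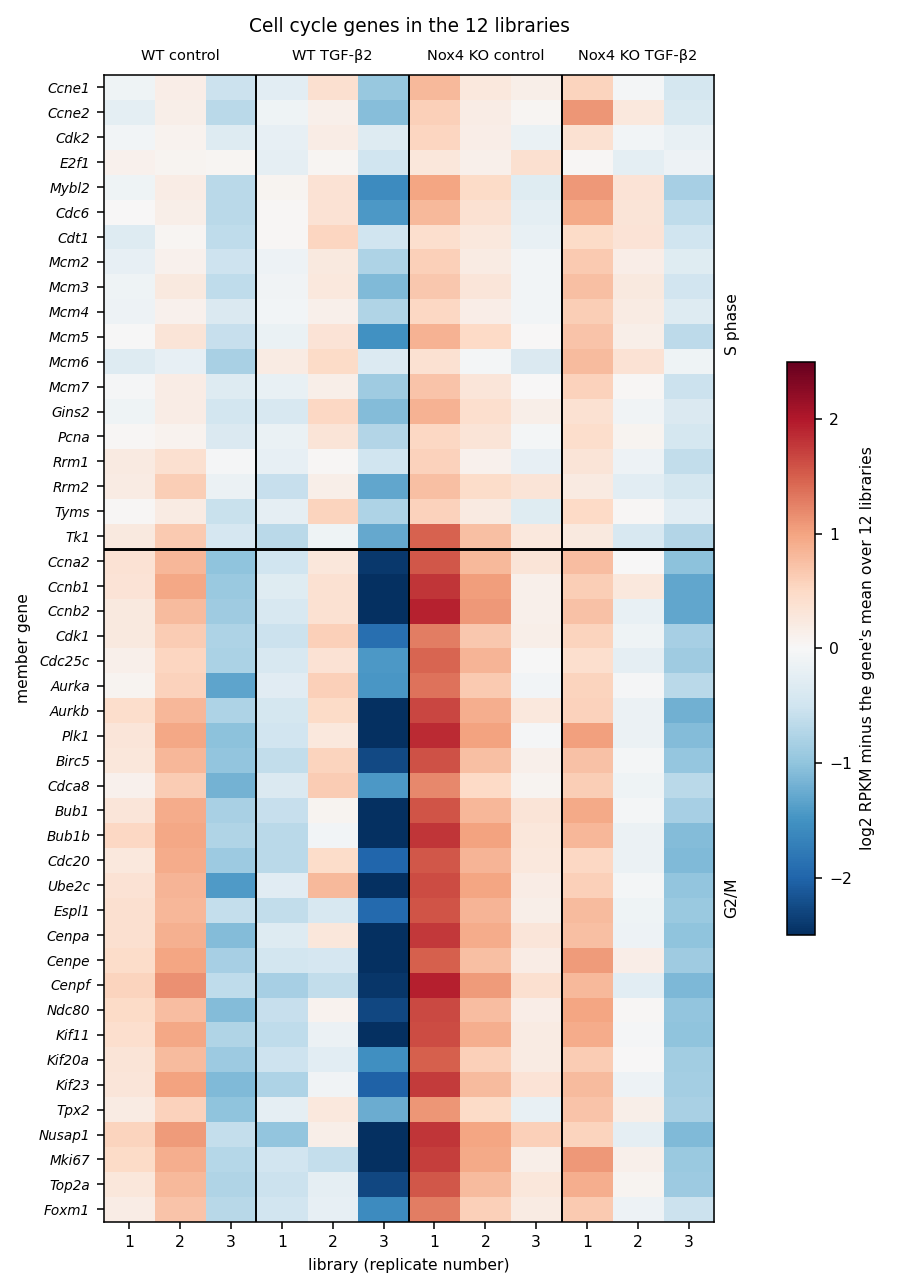
Level of the 46 genes (rows, S phase above and G2/M below the black line) in the 12 libraries (columns, replicate numbers within each group). Colour gives log2 RPKM minus the mean of that gene over the 12 libraries, and values beyond 2.5 in either direction have the colour of the end of the scale; library 3 of WT and library 1 of Nox4 KO stand out as the bluest and the reddest columns of their groups.

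Over the 12 libraries, deviations from the group means had a median Pearson correlation of 0.978 between pairs of G2/M genes, 0.948 between pairs of S phase genes and 0.955 between an S phase and a G2/M gene. These correlations are a description, since the genes share the same libraries. E2f1, an E2F transcription factor, followed the others least, with a median correlation of 0.675 with the G2/M genes, and Mcm3, a helicase subunit, had the highest value among the S phase genes (0.979). In each library a level was computed for each phase as the median over its genes of log2 CPM (counts scaled to a common library size with TMM) relative to the mean of all 12 libraries. The S phase level was -0.07, 0.15 and -0.60 in WT control libraries 1 to 3 and -0.10, 0.31 and -0.85 after TGF-β2. In Nox4 KO it was 0.54, 0.23 and -0.16 in control and 0.59, 0.13 and -0.40 after TGF-β2. The S phase levels of stimulated and control libraries overlapped in both genotypes.

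The G2/M level was 0.33, 0.83 and -0.97 in WT control and -0.41, 0.31 and -2.38 in WT TGF-β2 libraries. In Nox4 KO it was 1.52, 0.80 and 0.08 in control and 0.78, -0.04 and -0.94 after TGF-β2. Again the groups overlapped, but each stimulated library lay below the control library with the same number. The G2/M level minus the S phase level of the same library, in which the common rise and fall of both phases cancels in part, was 0.40, 0.68 and -0.36 in WT control and -0.32, -0.01 and -1.52 in WT TGF-β2. In Nox4 KO this difference was 0.98, 0.57 and 0.24 in control and 0.19, -0.17 and -0.54 after TGF-β2, and here the 3 stimulated libraries lay below the 3 control libraries without overlap. Between same-numbered Nox4 KO libraries it was lower after TGF-β2 by a similar amount in each case, with changes of -0.79, -0.74 and -0.78. Between same-numbered WT libraries the changes were -0.72, -0.68 and -1.16.

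**Figure D2:**
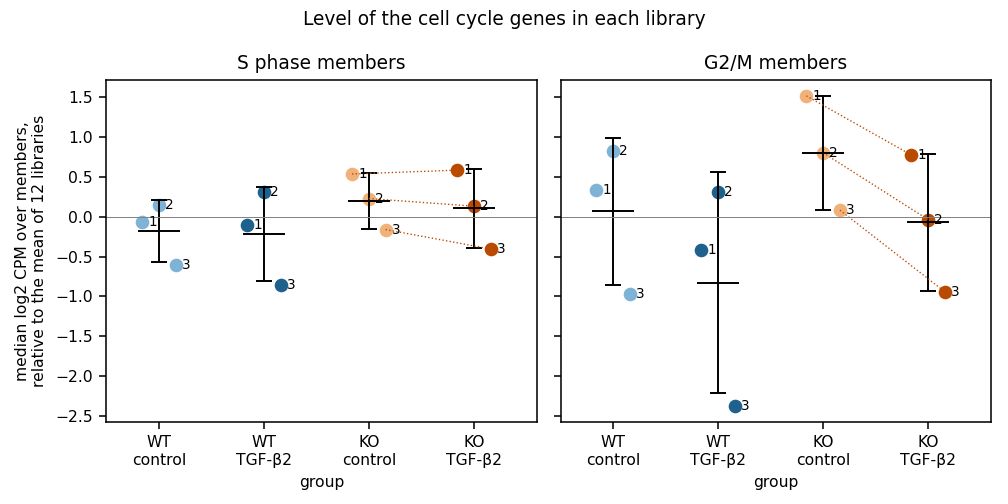
Level of the S phase genes (left) and of the G2/M genes (right) in each library, as the median log2 CPM over the genes relative to the mean of the 12 libraries. Points are libraries with their replicate number, horizontal bars are group means and error bars are 1 SD (n = 3); dotted lines join the same-numbered Nox4 KO libraries, whose G2/M levels all lie lower after TGF-β2 while their S phase levels stay close.

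In WT, the median change of the S phase genes after TGF-β2 was near 0, with single genes from -0.81 to 0.60 on the log2 scale. The G2/M genes were lower on average, by an amount smaller than the spread between libraries. Of the 46 genes, 45 passed the limit of a mean of 1 RPKM in at least 1 of the groups compared, and Cenpf did not. Espl1, Cenpe and Nusap1 passed through the control group alone. The median log2 fold change was -0.03 over the 19 S phase genes and -0.76 over 26 G2/M genes, beside -0.0027 over all 10743 genes tested. These medians depended on single libraries: they were 0.15 and -0.30 without WT control library 2, 0.26 and -0.30 without WT TGF-β2 library 3, and -0.33 and -1.36 without WT TGF-β2 library 2. All 26 had a log2 fold change below 0, as had 50.3% of all genes tested, but since the genes move together between libraries these are not 26 separate observations. With the limit lowered to 0.1 RPKM, at which all 46 genes were tested, the medians were -0.0029 over the S phase genes and -0.76 over the G2/M genes.

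None of the 45 genes passed edgeR's quasi-likelihood test at an adjusted p of 0.05 in WT, where 22.9% of all genes tested did in either direction. At an unadjusted p of 0.05, 0 genes were lower (19.1% of all genes tested) and 1 was higher (18.7%), and DESeq2 also called 0. For no gene were the 3 stimulated libraries all below the 3 control libraries in CPM scaled with TMM, which held for 20.7% of all genes tested. In RPKM, which is scaled to the library's total, this held for 1 gene, E2f1 (24.9% of all genes tested). These WT values are without the replicate block described below. With it 21 genes were called lower and 1 higher in WT (16.5% and 12.4% of all genes tested). The WT numbers were not taken to pair libraries, so comparisons of same-numbered WT libraries are a description. By number, 25 of the 45 genes were lower in all 3 cases and 2 higher in CPM scaled with TMM, beside 3188 and 3740 of all 10743 genes tested.

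In Nox4 KO, the mitotic genes were lower after TGF-β2 in every same-numbered pair of libraries, as were Rrm1, Rrm2 and Tk1 of nucleotide supply, and Mcm6 alone of the 46 was higher in all 3 pairs. The same-numbered control and stimulated Nox4 KO libraries deviated together across the transcriptome, so the replicate number was also fitted as a block, which compares each stimulated library with the control library of the same number. The WT values of single genes below are without a block, so errors and counts of calls cannot be set side by side with those of Nox4 KO with it. In WT with the block, 18 of 26 G2/M genes and 3 of 19 S phase genes were also called lower (16.5% of all genes tested). There Mki67 had a log2 fold change of -1.44 ± 0.20, Tk1 -0.81 ± 0.11 and Mcm6 0.60 ± 0.09 (adjusted p = 0.00452, 0.0043 and 0.00667, edgeR). Without the block, 0 of 46 genes passed the test (30.3% of all genes tested in either direction). At an unadjusted p of 0.05, 4 genes were lower (E2f1, Rrm2, Tk1 and Nusap1; 21.7% of all genes tested) and 0 higher (22.2%), and DESeq2 called the same 4 genes lower. In CPM scaled with TMM only E2f1 had all 3 stimulated libraries below all 3 controls (21.8% of all genes tested), and in RPKM the 4 genes E2f1, Nusap1, Rrm2 and Tk1 had (31.5%). The median log2 fold change was -0.07 over the S phase genes and -0.80 over the 27 G2/M genes, beside -0.01 over all 10809 genes tested. The S phase and G2/M medians were 0.14 and -0.35 without Nox4 KO control library 1, and 0.07 and -0.46 without Nox4 KO TGF-β2 library 3. Without Nox4 KO TGF-β2 library 1 they were -0.37 and -1.32. All 27 G2/M genes had a log2 fold change below 0 (51.8% of all genes tested). All 46 genes were tested, of which Cenpf passed the RPKM limit through the control group alone.

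With the block, 34 of the 46 genes fell (28.8% of all genes tested fell) and 1 gene, Mcm6, rose (25.1% rose), at an adjusted p under 0.05. The 34 comprised all 27 G2/M genes and 7 S phase genes, namely Ccne1, E2f1, Mcm5, Gins2, Rrm1, Rrm2 and Tk1. A fall of at least 2-fold was called for 9 of the 46 genes, against 5.73% of all genes tested. In CPM scaled with TMM, 35 of 46 genes were lower in all 3 pairs, as were 36.8% of all genes tested. The medians with the block were -0.06 over the S phase genes and -0.84 over the G2/M genes, and -0.21 and -0.92 without the pair of replicate 1. With the limit at 0.1 RPKM, 33 genes fell and 1 rose.

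**Figure D3:**
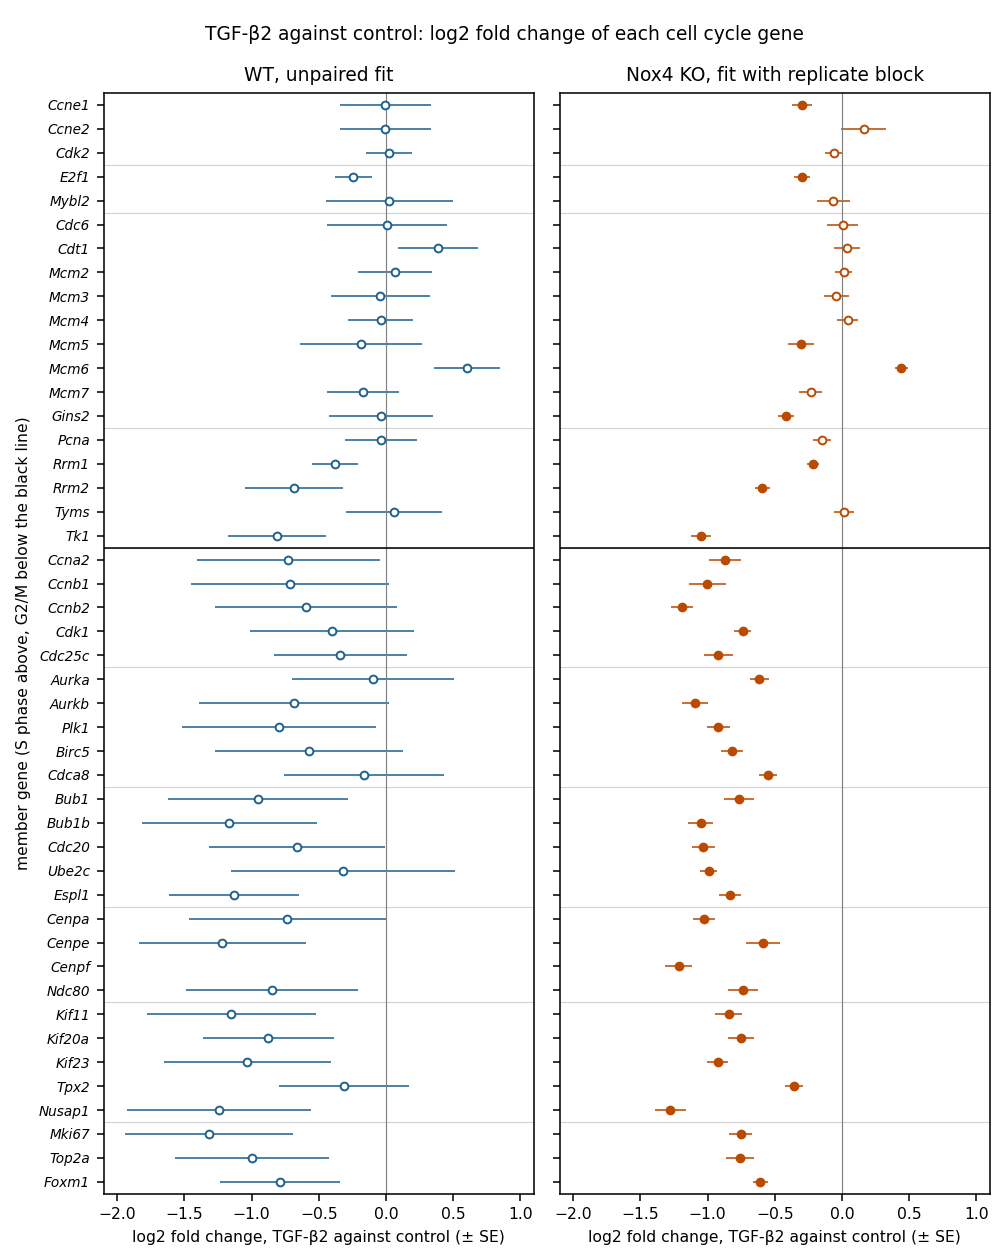
Log2 fold change (TGF-β2 against control) of each gene with its standard error, in WT without a block (left) and in Nox4 KO with the replicate block (right), so that the error bars of the panels are not comparable. Filled points passed an adjusted p of 0.05 and open points did not, Cenpf was not tested in WT, and grey lines separate the functional groups; the G2/M genes lie left of 0 in both panels and Mcm6 lies to the right.

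Of the G1/S cyclins and their kinase, Ccne1 (cyclin E1, which opens the G1/S transition with Cdk2) was at 15.4, 18.5 and 11.4 RPKM in WT control libraries 1 to 3 and at 13.9, 21.7 and 8.65 after TGF-β2. Nox4 KO libraries held 29.0, 19.9 and 18.4 RPKM in control and 24.2, 16.0 and 12.3 after TGF-β2, lower in each pair. This was a log2 fold change of -0.30 ± 0.07 (SE; adjusted p = 0.0198 with the block and 0.504 without, edgeR), against -0.0036 ± 0.34 in WT. Cdk2, the kinase itself, was at 13.1, 14.7 and 11.1 RPKM in WT control, 12.0, 15.7 and 11 in WT TGF-β2, 20.1, 15.5 and 12.4 in Nox4 KO control and 18, 13.1 and 12.1 in Nox4 KO TGF-β2. Its log2 fold changes of 0.02 ± 0.17 in WT and -0.06 ± 0.06 in Nox4 KO with the block did not pass, nor did that of Ccne2, the second E-type cyclin (0.16 ± 0.17 with the block).

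E2f1, which switches on S phase genes, was at 16.5, 16.2 and 16.0 RPKM in WT control and 13.2, 15.9 and 10.9 in WT TGF-β2. It was at 18.7, 16.7 and 20.2 RPKM in Nox4 KO control and 15.6, 13.0 and 14.1 after TGF-β2. Its WT control libraries were close to each other, and in both genotypes the RPKM of the stimulated libraries lay below that of the controls without overlap. E2f1 had a log2 fold change of -0.24 ± 0.14 in WT (adjusted p = 0.243) and -0.30 ± 0.06 in Nox4 KO (adjusted p = 0.0112 with the block, 0.0572 without). Mybl2, which encodes B-Myb, had log2 fold changes of 0.03 ± 0.47 and -0.06 ± 0.12 and did not pass.

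Among the 9 genes of origin licensing and the replicative helicase, Mcm6 stood apart from its partners. The proteins of Mcm2 to Mcm7 form the ring that unwinds DNA ahead of the fork, loaded by Cdc6 and Cdt1. Mcm6 was at 15.0, 16.3 and 10.7 RPKM in WT control and 21.6, 26.0 and 14.8 in WT TGF-β2. In Nox4 KO it was at 24.4, 18.1 and 14.6 RPKM in control and 32.3, 24.1 and 17.4 after TGF-β2. Each stimulated library was above the control library of the same number, although the groups overlapped. Mcm6 had a log2 fold change of 0.60 ± 0.25 in WT (adjusted p = 0.121, unadjusted p = 0.0439) and 0.44 ± 0.05 in Nox4 KO (adjusted p = 0.00146 with the block, 0.259 without).

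The other ring subunits did not follow Mcm6. Mcm5 was at 9.47, 12.1 and 6.42 RPKM in WT control, 8.61, 12.2 and 3.36 in WT TGF-β2, 17.6, 13.6 and 9.68 in Nox4 KO control and 15.6, 10.7 and 6.09 in Nox4 KO TGF-β2. It was lower in each Nox4 KO pair, with a log2 fold change of -0.30 ± 0.10 (adjusted p = 0.0424 with the block). This call was lost without a filter on low counts (adjusted p = 0.0662) and at 0.1 RPKM (0.0584). It was also lost with all 12 libraries in the fit (0.223) and without the pair of replicate 2 (0.178). Mcm2, Mcm3, Mcm4 and Mcm7 had log2 fold changes between -0.17 and 0.07 in WT and between -0.23 and 0.04 in Nox4 KO with the block, and none passed. Mcm6 had the highest RPKM of the 6 subunits in 6 of 6 stimulated libraries and in 2 of 6 control libraries. The RPKM of Mcm6 divided by the mean RPKM of the other 5 subunits was 1.29, 1.13 and 1.20 in WT control and 1.86, 1.77 and 2.27 in WT TGF-β2. In Nox4 KO this ratio was 1.23, 1.18 and 1.19 in control and 1.61, 1.69 and 1.86 after TGF-β2. The control and stimulated libraries did not overlap on this ratio in either genotype. The ratio was formed after the values of Mcm6 were seen, and is given as a description. Of the remaining genes of this group, Gins2, a part of the active helicase, fell in Nox4 KO (-0.41 ± 0.06, adjusted p = 0.00358 with the block), while Cdc6 and Cdt1 had log2 fold changes of 0.0049 ± 0.11 and 0.04 ± 0.10.

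**Figure D4:**
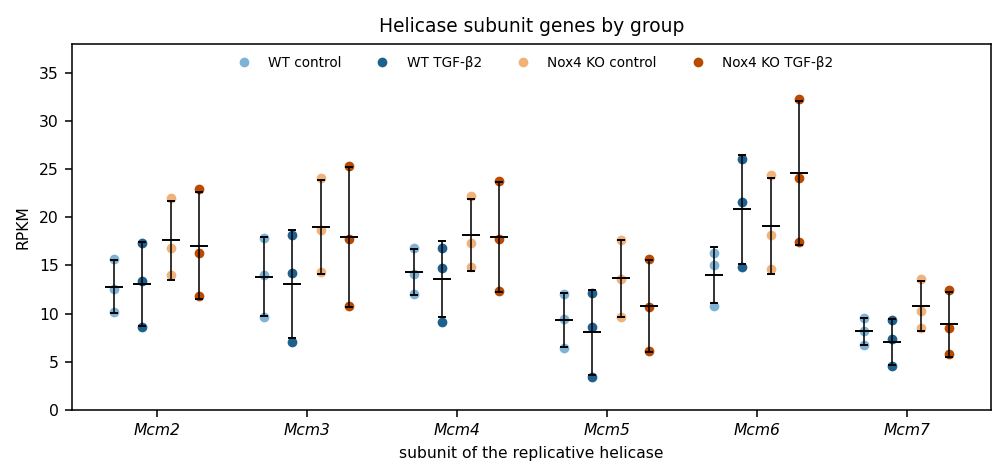
RPKM of the 6 genes of the helicase ring in each library, by group. Points are libraries, bars are group means and error bars 1 SD (n = 3); the stimulated groups of Mcm6 lie above their controls by their means, while those of the other subunits lie at or below them or, for Mcm2 in WT, within 1 RPKM above.

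The clamp and the enzymes of nucleotide supply divided by gene. Pcna, the sliding clamp of the replicative polymerases, was at 19.2, 20.2 and 14.6 RPKM in WT control, 16.7, 23.5 and 11.3 in WT TGF-β2, 27.1, 23.5 and 18.3 in Nox4 KO control and 25.5, 19.9 and 14.0 in Nox4 KO TGF-β2. Its log2 fold change did not pass in WT (-0.03 ± 0.27) or in Nox4 KO (-0.15 ± 0.07, adjusted p = 0.119 with the block). Tyms, thymidylate synthase, was at 0.06 ± 0.36 and 0.01 ± 0.07 on the same scale.

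Tk1, the cytosolic thymidine kinase, was at 11.5, 15.4 and 7.35 RPKM in WT control and 6.12, 9.02 and 4.01 in WT TGF-β2. Nox4 KO libraries held 27, 16.5 and 11.8 RPKM in control and 11.6, 7.39 and 5.85 after TGF-β2. Each stimulated library held 43.1% to 58.6% of the RPKM of its same-numbered control. This gave a log2 fold change of -0.81 ± 0.36 in WT (adjusted p = 0.155) and -1.05 ± 0.07 in Nox4 KO (adjusted p = 0.00043 with the block, 0.081 without). Rrm2, the regulated subunit of ribonucleotide reductase, was at 49.5, 65.6 and 38.9 RPKM in WT control and 28.9, 47.4 and 17.6 in WT TGF-β2. In Nox4 KO it was at 73.0, 59.3 and 54.2 RPKM in control and 50.2, 35.8 and 31.8 after TGF-β2, and the groups did not overlap in RPKM. Its log2 fold change was -0.68 ± 0.36 in WT (adjusted p = 0.214) and -0.59 ± 0.06 in Nox4 KO (adjusted p = 0.00102 with the block, 0.0766 without). Rrm1, the large subunit of the same enzyme, fell in Nox4 KO with the block (-0.21 ± 0.05, adjusted p = 0.013), and had a log2 fold change of -0.38 ± 0.17 in WT. Tk1, Rrm1 and Rrm2 were lower in all 3 same-numbered pairs of both genotypes, although the WT numbers were not taken to pair libraries.

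All 5 genes of the mitotic cyclins, Cdk1 and its phosphatase fell in Nox4 KO with the block, with a median log2 fold change of -0.92. Ccnb1 (cyclin B1, which drives mitotic entry with Cdk1) was at 1.80, 2.80 and 0.747 RPKM in WT control and 1.15, 1.85 and 0.183 in WT TGF-β2. Nox4 KO libraries held 4.91, 2.94 and 1.55 RPKM in control and 2.17, 1.71 and 0.581 after TGF-β2. Stimulation gave a log2 fold change of -0.71 ± 0.74 in WT (adjusted p = 0.517) and -1.0 ± 0.14 in Nox4 KO (adjusted p = 0.00301 with the block, 0.234 without). Ccna2 (cyclin A2, used in S phase and G2) was at 6.53, 9.09 and 2.56 RPKM in WT control, 3.64, 6.21 and 0.963 in WT TGF-β2, 15.1, 8.99 and 6.36 in Nox4 KO control and 8.75, 5.19 and 2.5 in Nox4 KO TGF-β2. Cdc25c, the phosphatase that activates Cdk1, was at 1.84, 2.45 and 0.982 RPKM in WT control, 1.29, 2.17 and 0.622 in WT TGF-β2, 4.62, 3.07 and 1.67 in Nox4 KO control and 2.28, 1.44 and 0.914 in Nox4 KO TGF-β2. Both were lower in each pair of both genotypes. Their log2 fold changes were -0.73 ± 0.68 and -0.34 ± 0.50 in WT, and -0.87 ± 0.12 and -0.92 ± 0.11 in Nox4 KO with the block (adjusted p = 0.00291 and 0.00177). Ccnb2, cyclin B2, had -1.19 ± 0.08 in Nox4 KO with the block and Cdk1 itself -0.74 ± 0.06.

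The mitotic kinases and the chromosomal passenger complex also fell together in Nox4 KO, 5 of 5 with the block, with a median of -0.82. Plk1, a kinase of mitotic entry and spindle assembly, was at 5.76, 9.15 and 2.31 RPKM in WT control, 3.36, 5.63 and 0.745 in WT TGF-β2, 17.0, 9.38 and 4.62 in Nox4 KO control and 9.56, 4.24 and 2.20 in Nox4 KO TGF-β2. Aurkb, the kinase of the passenger complex, was at 6.83, 8.95 and 2.93 RPKM in WT control, 3.69, 6.96 and 0.811 in WT TGF-β2, 16.0, 9.35 and 5.99 in Nox4 KO control and 7.51, 4.53 and 2.17 in Nox4 KO TGF-β2. For both genes the lowest value was that of WT TGF-β2 library 3 and the highest that of Nox4 KO control library 1. The log2 fold changes in Nox4 KO with the block were -0.92 ± 0.09 for Plk1 and -1.09 ± 0.10 for Aurkb (adjusted p = 0.000941 and 0.000809, against 0.344 and 0.177 without it). In WT they were -0.80 ± 0.72 and -0.68 ± 0.71. Aurka, the spindle pole kinase, and Cdca8, the passenger subunit borealin, had the smallest values of the group in WT (-0.10 ± 0.60 and -0.16 ± 0.60) and in Nox4 KO with the block (-0.62 ± 0.07 and -0.55 ± 0.07).

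The 5 genes of the spindle checkpoint, the anaphase-promoting complex and separase had medians of -0.95 in WT and -0.99 in Nox4 KO with the block, where all 5 fell. Cdc20, which activates the anaphase-promoting complex, was at 9.61, 15.2 and 4.30 RPKM in WT control, 5.04, 11.1 and 2.04 in WT TGF-β2, 23.5, 14.4 and 9.59 in Nox4 KO control and 11.5, 7.22 and 3.73 in Nox4 KO TGF-β2. Espl1, the separase that cuts cohesin at anaphase, was at 1.93, 2.60 and 0.962 RPKM in WT control, 0.959, 1.11 and 0.380 in WT TGF-β2, 4.34, 2.63 and 1.61 in Nox4 KO control and 2.54, 1.35 and 0.769 in Nox4 KO TGF-β2. Each stimulated library was below its same-numbered control for both genes. Cdc20 had log2 fold changes of -0.66 ± 0.65 in WT and -1.03 ± 0.09 in Nox4 KO with the block (adjusted p = 0.000676, 0.167 without). Espl1 had -1.13 ± 0.48 in WT (adjusted p = 0.138) and -0.84 ± 0.08 in Nox4 KO with the block (adjusted p = 0.00102, 0.286 without). Of the checkpoint kinases, Bub1b was at -1.17 ± 0.65 in WT and -1.05 ± 0.09 in Nox4 KO with the block.

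At the centromere and kinetochore all 4 genes fell in Nox4 KO with the block. Cenpe, a kinetochore motor, was at 2.25, 3.21 and 0.916 RPKM in WT control, 1.18, 1.22 and 0.285 in WT TGF-β2, 4.58, 2.75 and 1.85 in Nox4 KO control and 3.39, 1.84 and 0.872 in Nox4 KO TGF-β2. Cenpf, a large kinetochore protein, was at 0.783, 1.18 and 0.343 RPKM in WT control, 0.300, 0.350 and 0.0990 in WT TGF-β2, 2.05, 1.13 and 0.707 in Nox4 KO control and 0.942, 0.445 and 0.247 in Nox4 KO TGF-β2. Per length, Cenpf was the least abundant of the 46 genes in 12 of 12 libraries. The log2 fold change of Cenpe was -1.22 ± 0.62 in WT (adjusted p = 0.2) and -0.59 ± 0.13 in Nox4 KO with the block (adjusted p = 0.0127, 0.508 without), and that of Cenpf in Nox4 KO was -1.21 ± 0.10 (adjusted p = 0.000624 with the block, 0.175 without). The centromeric histone gene Cenpa and the kinetochore gene Ndc80 had -1.03 ± 0.09 and -0.74 ± 0.11 in Nox4 KO with the block.

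Of the kinesins and spindle proteins, Nusap1, which bundles microtubules, had the largest fall of the 46 genes in Nox4 KO. It was at 2.27, 3.24 and 1.03 RPKM in WT control, 0.777, 1.72 and 0.226 in WT TGF-β2, 5.35, 3.07 and 2.35 in Nox4 KO control and 2.27, 1.32 and 0.715 in Nox4 KO TGF-β2. Nusap1 had a log2 fold change of -1.28 ± 0.12 in Nox4 KO with the block (2.42-fold lower, adjusted p = 0.000833, 0.102 without the block) and -1.24 ± 0.68 in WT (adjusted p = 0.23). Kif11, the motor that separates spindle poles, was at 4.13, 6.02 and 1.81 RPKM in WT control, 1.97, 2.78 and 0.541 in WT TGF-β2, 9.55, 5.74 and 3.52 in Nox4 KO control and 5.85, 3.00 and 1.54 in Nox4 KO TGF-β2. Its log2 fold changes were -1.15 ± 0.63 in WT and -0.84 ± 0.10 in Nox4 KO with the block (adjusted p = 0.00178). Tpx2, an activator of Aurora A, had the smallest change of the G2/M genes that fell in Nox4 KO (-0.35 ± 0.07, adjusted p = 0.00797 with the block).

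Mki67, which encodes the proliferation marker Ki-67, was at 5.04, 6.79 and 2.20 RPKM in WT control and 2.58, 2.37 and 0.550 in WT TGF-β2. In Nox4 KO it was at 11.9, 6.93 and 3.99 RPKM in control and 7.62, 3.92 and 1.89 after TGF-β2. The groups overlapped in both genotypes. For Mki67 this was a log2 fold change of -1.32 ± 0.62 in WT (adjusted p = 0.172), the largest of the 45 genes tested there, and -0.75 ± 0.09 in Nox4 KO (adjusted p = 0.00162 with the block, 0.41 without). Foxm1, a transcription factor of G2/M genes, was at 5.33, 7.68 and 2.90 RPKM in WT control, 3.37, 4.08 and 1.58 in WT TGF-β2, 11.3, 7.05 and 5.41 in Nox4 KO control and 7.34, 4.30 and 3.24 in Nox4 KO TGF-β2. Its log2 fold changes were -0.79 ± 0.45 in WT and -0.61 ± 0.06 in Nox4 KO with the block (adjusted p = 0.000833). Top2a, the topoisomerase of mitotic chromosomes, had -1.0 ± 0.57 and -0.76 ± 0.10.

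The promoters of the genes with the largest changes are shown because S phase and G2/M genes are known for different promoter elements, the E2F site in the first and the CCAAT box with the cell cycle homology region (CHR) in the second. No gene was called without the block, so the 3 genes of each phase with the largest change among those called in Nox4 KO with the block and with an entry in the promoter table were taken, a choice made after the values were seen. Sequences are from RefSeq (GRCm38.p6) and run 5′ to 3′ on the strand of the gene from 250 bases before to 50 bases after its start. Capitals mark CCAAT, the CHR forms TTTGAA and TTTAAA, and the E2F site forms GGCGGGAA, TTTGGCGC and TTTCCCGC, each searched on both strands. The S phase promoters are
Tk1 (chr11:117825965-117826264, strand minus): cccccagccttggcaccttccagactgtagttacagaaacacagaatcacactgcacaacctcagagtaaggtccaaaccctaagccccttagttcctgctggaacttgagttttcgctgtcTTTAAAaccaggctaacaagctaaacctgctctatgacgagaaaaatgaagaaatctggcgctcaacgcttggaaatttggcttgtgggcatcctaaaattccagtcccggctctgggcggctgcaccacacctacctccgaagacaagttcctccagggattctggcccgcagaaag
Rrm2 (chr12:24708004-24708303, strand plus): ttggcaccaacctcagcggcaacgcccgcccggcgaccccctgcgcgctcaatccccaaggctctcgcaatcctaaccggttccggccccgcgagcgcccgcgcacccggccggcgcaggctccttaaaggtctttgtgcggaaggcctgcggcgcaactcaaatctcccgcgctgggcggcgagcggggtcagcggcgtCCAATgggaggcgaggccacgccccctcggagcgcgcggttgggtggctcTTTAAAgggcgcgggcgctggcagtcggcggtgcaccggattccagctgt
Mcm6 (chr1:128359656-128359955, strand minus): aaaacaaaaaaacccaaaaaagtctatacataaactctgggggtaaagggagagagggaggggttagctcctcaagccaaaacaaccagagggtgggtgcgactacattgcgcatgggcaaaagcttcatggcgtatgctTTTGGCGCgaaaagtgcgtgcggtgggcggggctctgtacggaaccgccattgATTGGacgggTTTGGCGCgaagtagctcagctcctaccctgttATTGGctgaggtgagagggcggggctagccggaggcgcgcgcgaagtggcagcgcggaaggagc
and the G2/M promoters are
Nusap1 (chr2:119618048-119618347, strand plus): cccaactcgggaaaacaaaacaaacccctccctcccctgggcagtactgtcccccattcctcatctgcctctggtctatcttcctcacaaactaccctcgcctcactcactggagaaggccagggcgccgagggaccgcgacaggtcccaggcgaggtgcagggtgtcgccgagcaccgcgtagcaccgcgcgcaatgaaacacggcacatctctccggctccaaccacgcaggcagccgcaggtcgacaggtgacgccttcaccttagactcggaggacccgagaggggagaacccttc
Cenpf (chr1:189688037-189688336, strand minus): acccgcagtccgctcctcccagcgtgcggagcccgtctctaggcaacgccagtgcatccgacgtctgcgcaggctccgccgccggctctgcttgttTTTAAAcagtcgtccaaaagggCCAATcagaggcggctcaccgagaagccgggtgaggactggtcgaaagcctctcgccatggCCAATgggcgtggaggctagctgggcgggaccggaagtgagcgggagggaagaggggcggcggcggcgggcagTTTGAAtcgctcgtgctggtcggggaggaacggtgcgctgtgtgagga
Ccnb2 (chr9:70421505-70421804, strand minus): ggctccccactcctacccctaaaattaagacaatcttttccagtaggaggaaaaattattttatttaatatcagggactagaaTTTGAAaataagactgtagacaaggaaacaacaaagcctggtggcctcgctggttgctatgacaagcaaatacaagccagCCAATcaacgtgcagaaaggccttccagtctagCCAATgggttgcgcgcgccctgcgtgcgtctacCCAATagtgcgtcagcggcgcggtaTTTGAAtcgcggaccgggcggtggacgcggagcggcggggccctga

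Ccnb2, which fell, held 3 CCAAT boxes that started 87, 54 and 21 bases before the start site (positions -87, -54 and -21) and a TTTGAA that began 5 bases into the transcript, besides a TTTGAA at -167. Cenpf had CCAAT at -132 and -71, TTTGAA at 3 and TTTAAA at -154, so that in both genes a CCAAT box lay upstream of a CHR form near the start. Mcm6, the gene that rose, was the only one of the 6 with an E2F form, TTTGGCGC at -110 and at -47, and held CCAAT on the opposite strand at -57 and -14. Tk1 and Rrm2 held TTTAAA at -128 and at 1, and Rrm2 also CCAAT at -50. Nusap1 held none of these letters in this window.

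In the promoter table, 37 of the 46 genes had an entry, with 38 promoters since Mcm7 had more than 1. CCAAT was in 85.7% of the 21 G2/M promoters, 58.8% of the 17 S phase promoters and 37.4% of all 32851 promoters in the table. A CHR form (TTTGAA or TTTAAA) was in 90.5%, 29.4% and 27.6%, and both together in 81%, 17.6% and 10.7%. At least 1 of the 3 E2F forms, of which GGCGGGAA and TTTCCCGC can overlap on opposite strands, was in 47.1% of the S phase promoters, in 0% of the G2/M promoters and in 3.21% of all. The split into phases, which was made by gene function, thus went with different promoter letters. These matches are a description of the windows and not sites shown to be bound.

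Further genes of the cycle, listed by function with the results for the 46 known, had medians of the same sign. Of 56 other G2/M genes, 51 were tested in WT with a median log2 fold change of -0.76, 1 called lower and 0 higher (12.3% and 10.6% of all genes tested). In Nox4 KO 54 were tested with a median of -0.72, and 3 were called lower without the block (15% of all genes tested) and 48 with it (28.8%), with 0 higher in either (15.2% and 25.1%). Of 50 other S phase genes, 45 were tested in WT (median -0.26, none called) and 48 in Nox4 KO (median -0.22, 2 lower and 1 higher, and with the block 19 lower and 2 higher). The counts of S phase genes compare with the same shares of all genes tested. Cdc25b, a phosphatase that activates Cdk1 at mitotic entry, fell in both genotypes, from 4.11 ± 0.99 to 1.63 ± 0.61 RPKM in WT (SD, n = 3; log2 fold change -1.30 ± 0.30, adjusted p = 0.0239) and from 5.67 ± 1.94 to 2.18 ± 0.80 RPKM in Nox4 KO (-1.29 ± 0.34, adjusted p = 0.0338 without the block). Ckap2, a spindle protein, fell in Nox4 KO from 17.9 ± 5.71 to 8.05 ± 2.30 RPKM (-1.06 ± 0.30, adjusted p = 0.0413 without the block).

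Upstream of S phase, the cyclin D1 gene fell in both genotypes and Myc rose, both without the block. Ccnd1, whose protein activates Cdk4 and Cdk6 in G1, was at 43.7 ± 11.2 RPKM in WT control and 8.71 ± 0.80 after TGF-β2 (log2 fold change -2.28 ± 0.18, adjusted p = 0.000711), and at 58.3 ± 33.7 and 13.8 ± 6.36 RPKM in Nox4 KO (-1.99 ± 0.48, adjusted p = 0.0264). Myc, a transcription factor that promotes growth and cycle entry, was at 21.2 ± 1.75 and 41.8 ± 2.84 RPKM in WT (1.02 ± 0.09, adjusted p = 0.00101) and at 23.3 ± 0.96 and 36.7 ± 4.27 RPKM in Nox4 KO (0.74 ± 0.10, adjusted p = 0.00527). Of the 20 genes of this list, which also holds the D cyclins, their kinases, the CDK inhibitors and the pocket proteins, 3 rose and 3 fell in WT and 2 rose and 4 fell in Nox4 KO, where with the block 2 rose and 9 fell. Of all genes tested, 10.6% rose and 12.3% fell in WT, 15.2% and 15% in Nox4 KO, and 25.1% and 28.8% with the block. In WT the genes of the CDK inhibitors held calls in both directions. Cdkn2b, which encodes p15, had log2 fold changes of -0.16 ± 0.12 in WT and -0.29 ± 0.33 in Nox4 KO. Cdkn1a, which encodes p21, had -0.0040 ± 0.12 in WT and -0.17 ± 0.11 in Nox4 KO, where it was called lower with the block (-0.16 ± 0.05, adjusted p = 0.0346). Cdkn1b, which encodes p27, fell in WT (-0.49 ± 0.10, adjusted p = 0.0139) and in Nox4 KO with the block (-0.38 ± 0.09, adjusted p = 0.0192). Cdkn1c, which encodes p57, rose in WT (0.63 ± 0.18, adjusted p = 0.0484) and had a log2 fold change of 0.55 ± 0.64 in Nox4 KO without the block. In Nox4 KO with the block Cdkn2a, Cdkn2c and Cdkn2d, further genes of this family, also fell, with log2 fold changes of -0.40, -1.03 and -0.95. These inhibitor genes were named after their values were seen.

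Between the genotypes, the cell cycle genes had higher mean levels in Nox4 KO in both conditions, but not beyond the spread between libraries. In control, 45 of 46 genes had a log2 fold change (Nox4 KO against WT) above 0, as had 50.7% of all genes tested, with medians of 0.42 over the S phase genes and 0.68 over the G2/M genes. After TGF-β2 all 45 genes tested were above 0 (50.4% of all genes tested), with medians of 0.36 and 0.67. Espl1, Cenpe and Nusap1 passed the RPKM limit there through Nox4 KO alone, as did Cenpf in control, which favours a value above 0 for these genes. In control the medians were 0.19 and 0.24 without Nox4 KO library 1, 0.23 and 0.32 without WT library 3, and 0.60 and 1.1 without WT library 2. After TGF-β2 they were 0.04 and 0.13 without Nox4 KO library 1, 0.10 and 0.23 without WT library 3, and 0.62 and 1.16 without WT library 2. No gene passed edgeR's test in either condition, the smallest adjusted p among the 46 genes being 0.830 in control and 0.835 after TGF-β2, and 0% of all genes tested passed. At an unadjusted p of 0.05 the count was 0 in both (5.54% and 3.22% of all genes tested), and DESeq2 called 0 of them. In CPM scaled with TMM the libraries of the genotypes overlapped for all of them in both conditions, while 5.53% and 3.7% of all genes tested had all 3 Nox4 KO libraries above all 3 WT libraries. In RPKM this held for 1 of the 46 genes in control, E2f1 (10.9% of all genes tested), and for 0 after TGF-β2 (4.16%). Mki67, as an example, had 4.67 ± 2.32 RPKM in WT control and 7.59 ± 3.98 in Nox4 KO control (SD, n = 3).

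The difference between the genotypes depended on single libraries: it shrank without WT library 3 or Nox4 KO library 1 and grew without WT library 2. In WT TGF-β2 library 2, 1.15% of counted reads were from ribosomal protein genes, against 0.71% to 0.85% in the other libraries. The summed RPKM of 10 macrophage markers, of which 9 had a count in all 12 libraries, ran from 27.9 to 137 in WT control, 24.9 to 97.2 in WT TGF-β2, 21.8 to 105 in Nox4 KO control and 15.4 to 77.6 in Nox4 KO TGF-β2. It was highest in library 3 of both WT groups, where the cell cycle genes were lowest, and in library 1 of both Nox4 KO groups, where they were highest. Ptprc, which encodes the leukocyte antigen CD45, was at or below 0.43 RPKM in all libraries. In the TGF-β2 comparisons, the summed RPKM of 5 muscle markers was 42.0 to 110 in the control and 256 to 615 in the stimulated libraries, nearly all of it from Acta1, while Myod1, Myog and Ckm were at or near 0. The sums of the macrophage, endothelial and adipocyte markers were lower in each stimulated library than in its same-numbered control. For keratinocyte markers and for Schwann cell and melanocyte markers the sums went both ways. The part of these cells in the levels of the cell cycle genes was not tested.

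The genotype by TGF-β2 interaction, which asks whether Nox4 KO changed the response of these genes to TGF-β2, gave medians of -0.04 over the S phase genes and 0.0016 over the G2/M genes on the log2 scale. The S phase and G2/M medians were -0.30 and -0.47 without Nox4 KO TGF-β2 library 1, and 0.20 and 0.53 without WT TGF-β2 library 2. None of the 46 genes passed (0% of all 10890 genes tested), the smallest adjusted p among them being 0.865, none had an unadjusted p under 0.05 (2.66% of all genes tested), and DESeq2 called 0 of them. The response of Mki67 differed by 0.65 ± 0.93, that of Tk1 by -0.24 ± 0.56 and that of Mcm6 by -0.14 ± 0.40. These errors are from the fit without the replicate block. With errors of this size, a difference between the genotypes as large as the responses themselves was not detectable for single genes in that fit. With the block, 0 of the 46 genes passed as well (0% of all genes tested).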

How the data were processed

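RNA of primary skin fibroblasts was sequenced in 12 libraries, 3 per group, grouped and numbered as in the sample labels. The deposited values are raw counts of reads per gene. The authors used STAR 2.4 for alignment to GRCm38, dropped multi-mapping reads and counted the rest on merged exons with featureCounts 1.4.6; use of the strand is not stated, so overlapping antisense genes may share reads. RPKM was computed from the count, the library total and the merged exon length in GENCODE. Each comparison was fitted on its own libraries with edgeR 4.0.16 in R 4.3.3 (glmQLFit without the legacy method, TMM, Benjamini-Hochberg over all genes tested), for genes with a mean of at least 1 RPKM in at least 1 group. A call is an adjusted p under 0.05, at any fold. Errors of log2 fold changes are standard errors derived from the F statistic. The scripts were tested on simulated data.

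Same-numbered libraries were compared by the correlation of their deviations from the group means over 10890 genes. In Nox4 KO these were 0.775, 0.683 and 0.748 (0.758, 0.684 and 0.735 without the cell cycle lists), above the limit of 0.1, so values with the replicate number as a block are given beside the unblocked ones. The pairing rests on the shared number and this correlation, not on a stated common culture. No pair of libraries within a group agreed within sampling noise.

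The members and lists were chosen with earlier results of these data known. Values in every library are given for Mki67, Pcna, Ccnb1 and Mcm5 and, in each of 10 functional groups, for the gene with the smallest unadjusted p in each TGF-β2 comparison. Of other lists, at most the 3 called genes with the largest change per TGF-β2 comparison are named, apart from the exceptions stated. Alternatives were DESeq2 1.42.0, other normalizations and filters, the legacy method, 1 fit of all libraries, the replicate block and leaving out each library.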

Additional observations from a re-analysis of the deposited data

How the results depend on the processing

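In WT the same-numbered libraries correlated by 0.0749, 0.435 and 0.531, and library 1 did not correlate best with its own number, so the numbers were not taken to pair them. With the replicate block 21 genes were called lower and 1 higher there (16.5% and 12.4% of all genes tested), where the fit without it called none. In the genotype comparisons and the interaction the replicate block gave 0 calls, as did the fits without it. Leaving out 1 library of the WT comparison gave 0 to 1 genes lower (E2f1 without WT TGF-β2 replicate 2) and 0 to 1 higher (Mcm6 without WT TGF-β2 replicate 3). In Nox4 KO without the block, where none was called, DESeq2 called 4 genes lower, library size normalization 2 (E2f1 and Rrm2), upper-quartile normalization 1 (E2f1), and leaving out 1 library 0 to 1 (Rrm2 without Nox4 KO TGF-β2 replicate 1). The block in Nox4 KO gave 34 genes lower and 1 higher.

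The alternatives to that blocked fit were added after the data were seen. Under them 28 to 36 genes were lower, beside 28.8% of all genes tested in the blocked fit itself. The 28 were without the pair of replicate 2 (14% of all genes tested), 30 with all 12 libraries in the fit (20.7%), and 36 with library size (37%) or upper-quartile normalization (34%). With a fold of at least 2, 9 were lower and 0 higher. Leaving out each pair gave 1 to 3 genes higher, the 3 without replicate 3. Of the 46 genes, 7 lost their call in at least 1 of these fits: Ccne1, E2f1, Mcm5, Gins2, Rrm1 and Cenpe, with adjusted p from 0.0501 to 0.223, and Cenpf, which was not tested without replicate 1. The medians over the S phase and G2/M genes moved by less than the spread between libraries (1 SD, 0.466 and 1.01) under every alternative. That limit is wider than the medians themselves, so staying within it does not show that they are stable. Leaving out 1 library moved several by over 1.5 times and turned the sign of S phase medians, as given with those medians. No called gene changed its direction. The causes were not tested. With 3 libraries per group, the spread between libraries limits the unpaired comparisons, while each gene had at least 17 counts in each library.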
